A study of Mus musculus with 2 samples.

Results

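The genes described here are 10 mouse genes of antigen presentation by the major histocompatibility complex (MHC). They are the class I heavy chain genes H2-K1, H2-D1 and H2-T23, the class I light chain gene B2m, the peptide loading genes Tap1, Tap2 and Tapbp, and the class II genes H2-Aa, H2-Ab1 and Cd74. They were picked by gene name from 55536 annotated genes, of which 22028 code for protein, and they carry 63 annotated transcripts. All 10 were found by name in the gene table and in both transcript tables of both libraries.

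The samples form 1 group of 2 total RNA libraries, each made from 300 ng of RNA of a hippocampal layer with external spike-in RNAs (the ERCC mix) added. The mice were B6CASTF1/J females aged 36 days, a cross of the inbred strains C57BL/6J and CAST/EiJ. No treatment, genotype or stage was compared, so the measurements are levels and the spread between libraries. Each library has a biosample of its own but both name 1 donor identifier, so that spread may not be one between mice. The libraries also differed in choroid plexus markers, as given below. Expected counts summed to 32443497 in replicate 1 and to 30125183 in replicate 2. Counts are not split by parental allele. MHC genes are among the most polymorphic of the genome, and the build, mm10, is the C57BL/6J sequence, so how far reads of the CAST/EiJ alleles were counted was not tested.

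Class I molecules display peptides from inside the cell on its surface. A heavy chain pairs with beta-2-microglobulin, the product of B2m, and receives a peptide that the transporter TAP, a dimer of the Tap1 and Tap2 products, has pumped into the endoplasmic reticulum, where tapasin, the product of Tapbp, holds the heavy chain near TAP. Class II molecules display peptides from the endocytic pathway and are made mainly by professional antigen presenting cells, with the invariant chain, the product of Cd74, guarding their groove until a peptide is loaded. In the brain, microglia, border-associated macrophages and endothelial cells are known sources of class I RNA. Class I molecules of neurons are known for roles in synapse refinement in the developing visual system and hippocampus.

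The class I genes and the loading genes Tapbp and Tap2 were above all 3 class II genes in both libraries. B2m led at 43.0 TPM in replicate 1 and 40.46 TPM in replicate 2, and H2-Aa closed the order at 0.35 and 0.52 TPM. TPM is a level per RNA length within a library, and the values are those of the gene table unless the second quantification is named. 8 of the 10 members reached 1 TPM in both libraries, and the exceptions were the class II chains H2-Aa and H2-Ab1. Among all protein-coding genes, 57.6% reached that level. By mean TPM, B2m stood at percentile 89.3 of the protein-coding genes, Tapbp at 72.7 and the other 8 members between percentiles 36.6 and 57.8. The members summed to 79.53 TPM in replicate 1 and 79.58 TPM in replicate 2, from 2216 and 2179 counts. In bulk tissue, fewer cells of a type and less RNA per cell cannot be told apart.

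**Figure D1:**
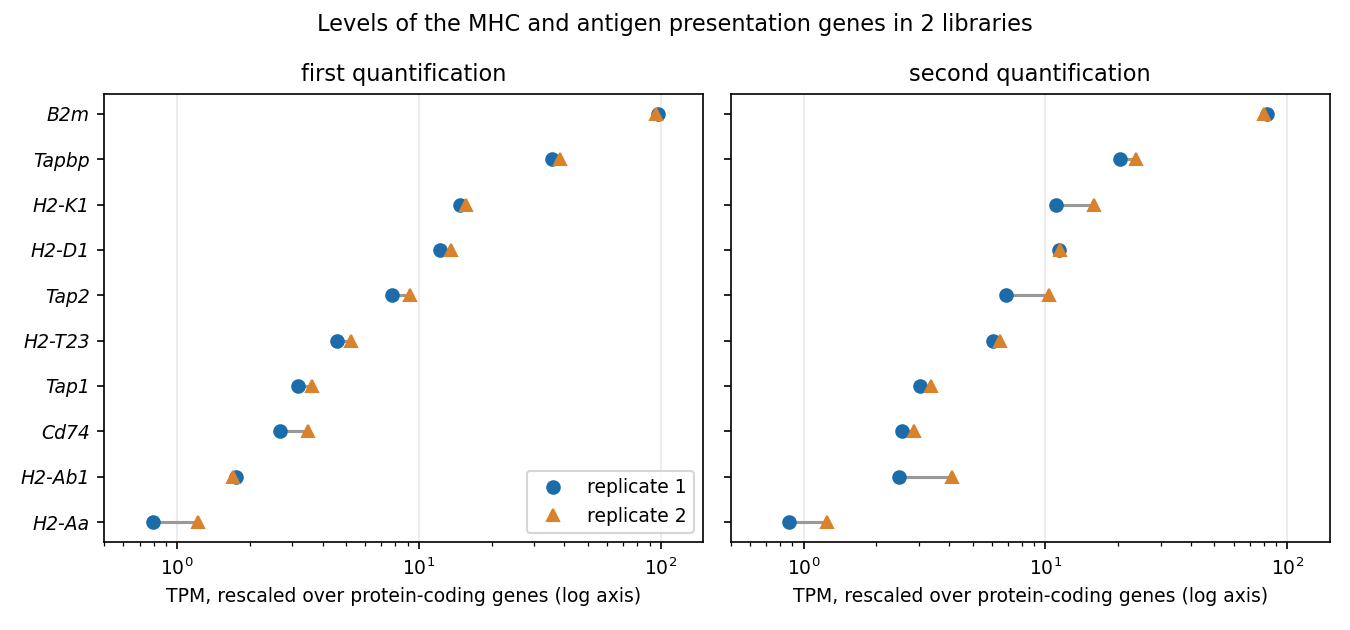
Level of each of the 10 genes in replicate 1 (circles) and replicate 2 (triangles), in TPM rescaled over protein-coding genes, on a log axis, in the first quantification (left) and the second (right). B2m is highest and H2-Aa lowest in both panels, and H2-Ab1 lies higher in the second quantification, between 2.48 and 4.12, than in the first, between 1.70 and 1.75.

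The classical heavy chain genes H2-K1 and H2-D1, whose products present peptides to CD8 T cells, lay side by side. H2-K1 (mm10, chromosome 17, 33996017 to 34000347, minus strand) had 159 counts, or 6.51 TPM, in replicate 1 and 156.56 counts, or 6.65 TPM, in replicate 2, a mean of 6.58 ± 0.099 TPM (SD, n = 2). H2-D1 (chromosome 17, 35262730 to 35267499, plus strand) had 242.42 counts and 5.36 TPM in replicate 1, and 224.35 counts and 5.76 TPM in replicate 2, a mean of 5.56 ± 0.283 TPM. H2-K1 was above H2-D1 in both libraries by TPM, by 1.21 and 1.15 times, although H2-D1 had more counts, TPM being a level per length. In the second quantification the ratio was 0.972 in replicate 1 and 1.38 in replicate 2. The order of this pair thus depended on the library there. In the first, H2-K1-215, a form of 457 bases that keeps an intron, gave 2.41 and 2.24 of the TPM of H2-K1. Coding forms made up 61.8% and 60.2% of the TPM of H2-K1, against 100% and 90.6% for H2-D1. By coding forms alone, H2-K1 was below H2-D1 in both libraries of the first quantification.

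H2-T23 encodes Qa-1, a non-classical heavy chain that presents leader peptides of other class I chains to CD94/NKG2 receptors. It lies on chromosome 17 from 36029773 to 36032855 on the minus strand. H2-T23 had 71.96 counts and 2.01 TPM in replicate 1, and 75.08 counts and 2.23 TPM in replicate 2, a mean of 2.12 ± 0.156 TPM. Both values were below those of H2-D1 in either library. The antisense gene A930015D03Rik, chosen after its value was seen, covers all 3083 bases of H2-T23 and had 56 and 54 counts. Whether counting used the strand is not given in the sources used here. The overlap is one of gene spans, introns included. No stretch of 100 bases, the read length, in an H2-T23 transcript occurred on the opposite strand in a transcript of another gene. Whether reads of the pair were mixed through shorter stretches was not tested.

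The 3 heavy chain genes are paralogs. The code of their peptide-binding part shows where reads of the mm10 sequence can tell them apart. Whether reads of the CAST/EiJ alleles differ at the same positions was not tested. The first 90 bases of exon 2, which encodes the alpha 1 domain at one side of the groove, are shown on mm10 from the GENCODE M21 transcripts H2-K1-205, H2-D1-202 and H2-T23-201. Capitals mark the 13 positions at which the 3 sequences are not all alike.
H2-K1 (chr17:33999914-34000003, minus strand): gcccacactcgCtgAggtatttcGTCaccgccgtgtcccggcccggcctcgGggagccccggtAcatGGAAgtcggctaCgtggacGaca
H2-D1 (chr17:35263379-35263468, plus strand): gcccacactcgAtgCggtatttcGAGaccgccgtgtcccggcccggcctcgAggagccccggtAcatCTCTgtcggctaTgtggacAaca
H2-T23 (chr17:36032333-36032422, minus strand): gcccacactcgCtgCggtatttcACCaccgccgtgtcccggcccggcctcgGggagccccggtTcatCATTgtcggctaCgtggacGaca
Over the whole of exon 2, 270 bases, H2-K1 and H2-D1 were 91.1% identical, H2-K1 and H2-T23 86.7%, and H2-D1 and H2-T23 83.3%. Exon 3, which encodes the alpha 2 domain, differed more, with 88.0%, 70.7% and 69.2% identity for the same pairs. Exon 4, which encodes the alpha 3 domain that binds B2m and CD8, was 96.0%, 95.3% and 96.4% identical.

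Exon 4 also held the longest run that H2-D1 and H2-T23 have in common, 145 bases of coding sequence, longer than a read. Reads were 100 bases long by the effective lengths in the tables, so a read inside this run fits both genes. The run is printed from H2-D1 and lies at chr17:36030910-36031054 on the minus strand in H2-T23.
H2-D1 and H2-T23, exon 4 (chr17:35265827-35265971, plus strand): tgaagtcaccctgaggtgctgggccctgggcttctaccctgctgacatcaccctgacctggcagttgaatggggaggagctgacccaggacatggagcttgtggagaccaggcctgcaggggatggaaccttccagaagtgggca
The longest common run of H2-K1 and H2-D1 was 91 bases and that of H2-K1 and H2-T23 was 81 bases. Both lay in exon 4 and were shorter than a read. All these runs are those of the reference build, and runs of the CAST/EiJ alleles were not tested.

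Reads that fit several genes leave an expected count that is not whole. Among the members, 4 of 10 had such counts, more than 0.005 from a whole number in at least 1 library: H2-D1, H2-T23, Tapbp and, in replicate 2 only, H2-K1. Among the 12651 genes averaging at least 100 counts, 16.7% had one, beside H2-D1, Tapbp and H2-K1 of the 5 such members. H2-T23 averages fewer counts. The deposited standard deviation of the count was largest for H2-D1, at 2.44 counts in replicate 1 and 1.94 in replicate 2, and H2-T23 followed at 1.93 and 1.48 counts. For H2-K1 and Tapbp it was at most 0.55 counts in either library, and for the other 6 members it was 0.

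Read-long windows of the annotated transcripts showed the same 4 genes. Of the distinct 100-base windows of H2-D1, 93 of 2591 (3.589%) also occurred in a transcript of another gene on the same strand. For H2-T23 it was 100 of 3173 (3.152%), for H2-K1 38 of 3969 (0.957%) and for Tapbp 3 of 3869 (0.078%). The 38 windows of H2-K1 all lie in H2-K1-204, a processed transcript with 0 and 1.03 counts in the first quantification. The coding forms of H2-K1 have none. None of the windows of B2m, Tap1, Tap2, H2-Aa, H2-Ab1 or Cd74 was shared in this way. With 50-base windows, the shared part was 12.8% for H2-D1, 13.6% for H2-T23 and 9.63% for H2-K1. On the opposite strand, Tapbp shared 14.7% of its windows with the antisense gene Gm19412, which had 15 counts in replicate 1 and 19 in replicate 2, and Tap2 shared 3.93% with Gm15821, at 1 and 0 counts.

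**Figure D2:**
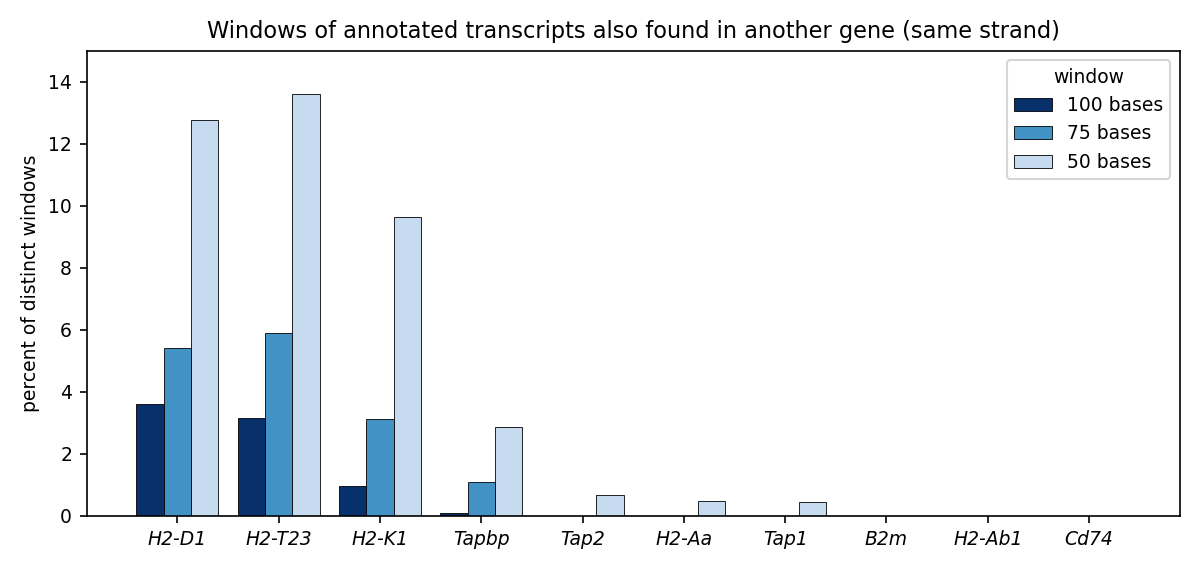
Percent of distinct windows of 100, 75 or 50 bases in the annotated transcripts of each gene that also occur in a transcript of another gene on the same strand. H2-D1, H2-T23 and H2-K1 stand above the other 7 genes at each window length, and B2m, H2-Ab1 and Cd74 have no bar.

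B2m (chromosome 2, 122147686 to 122153083, plus strand) encodes the light chain common to all classical class I molecules and to several class I-like ones. It had 770 counts in replicate 1 and 690 counts in replicate 2, a mean of 41.73 ± 1.80 TPM. The 3 heavy chain genes together had 13.88 TPM in replicate 1 and 14.64 TPM in replicate 2, so B2m was at 3.10 and 2.76 times their sum. In the second quantification B2m was at 2.89 and 2.35 times their sum. Patl2, which overlaps B2m on the opposite strand and was chosen after its value was seen, had 3 counts in replicate 1 and 1 count in replicate 2.

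The loading genes spanned a wide range of levels although their products work in 1 complex. Tapbp (chromosome 17, 33915899 to 33929292, plus strand) had 632.15 counts and 15.57 TPM in replicate 1, and 654.78 counts and 16.33 TPM in replicate 2, a mean of 15.95 ± 0.537 TPM. It was at 11.2 and 10.6 times the TPM of Tap1 in the gene table and at 6.73 and 7.04 times in the second quantification. Tap2 (chromosome 17, 34203527 to 34216321, plus strand) had 202 counts and 3.40 TPM in replicate 1, and 219 counts and 3.89 TPM in replicate 2. Tap1 (chromosome 17, 34187553 to 34197225, plus strand) had 85 counts and 1.39 TPM in replicate 1, and 90 counts and 1.54 TPM in replicate 2. Tap2 was thus at 2.45 and 2.53 times Tap1, with no overlap between the genes, and at 2.27 and 3.09 times in the second quantification. Coding forms made up 8.53% and 9.51% of the TPM of Tap2, against 59.71% and 92.81% for Tap1. By coding forms alone, Tap2 was below Tap1 in both libraries of the first quantification. In the second, these shares were 30.75% and 42.63% for Tap2 and 39.24% and 78.93% for Tap1, and Tap2 stayed above Tap1.

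The class II genes were at the low end. H2-Aa, which encodes the alpha chain of the I-A molecule, had 8 counts in replicate 1 and 12 in replicate 2, with exact 95% Poisson intervals of 3.45 to 15.8 and 6.20 to 21 counts. H2-Ab1, which encodes the beta chain, had 12 and 15 counts, or 0.77 and 0.72 TPM. Cd74 had 33 counts and 1.17 TPM in replicate 1, and 42 counts and 1.48 TPM in replicate 2, a mean of 1.32 ± 0.219 TPM. The heavy chain genes of class I summed to 12.4 and 11.8 times the TPM of H2-Aa and H2-Ab1 together, and to 8.49 and 6.33 times in the second quantification. Cd74 was at 1.04 and 1.19 times the sum of the pair, against 0.76 and 0.531 times in the second quantification, so the order of the invariant chain and the pair depended on the quantification. These intervals and all others here cover counting error only.

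Ordered by mean TPM, the members ran B2m, Tapbp, H2-K1, H2-D1, Tap2, H2-T23, Tap1, Cd74, H2-Ab1 and H2-Aa. The lower value of each gene was above the higher value of the next, except for Tap1 and Cd74, whose values overlapped. In the second quantification the first 6 places and the last were as before, while H2-Ab1 moved to place 7, ahead of Tap1 and Cd74.

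The ratio between the libraries had a counting interval that included 0 for all 10 members. A gene was compared where it averaged at least 100 counts and called apart past 1.5-fold, on counts scaled with TMM, edgeR's scaling factor for library composition. Of the 5 members with that count, 0 were past 1.5-fold and 0 were past 2-fold, where 1.34% and 0.466% of all 12651 such genes were. With 1 library on each side there is no test of a condition, and the ratios are replicate 2 over replicate 1. The log2 ratio of B2m was -0.08, with a 95% counting interval of -0.23 to 0.07, and that of Tapbp was 0.13, with an interval of -0.03 to 0.29. H2-K1 had 0.06 (-0.27 to 0.39), H2-D1 had -0.03 (-0.30 to 0.23) and Tap2 had 0.19 (-0.09 to 0.48). For the 5 members below 100 counts the log2 ratios were between 0.14 and 0.63, and their intervals were wider and also included 0. That of H2-Aa, the widest, ran from -0.75 to 2.16 and so spanned differences of several fold. Scaled to the spike-ins, which puts the median log2 ratio of all compared genes at 0.25 instead of -0.01, all 10 ratios were above 0, whereas 8 were with TMM and B2m and H2-D1 were below.

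**Figure D3:**
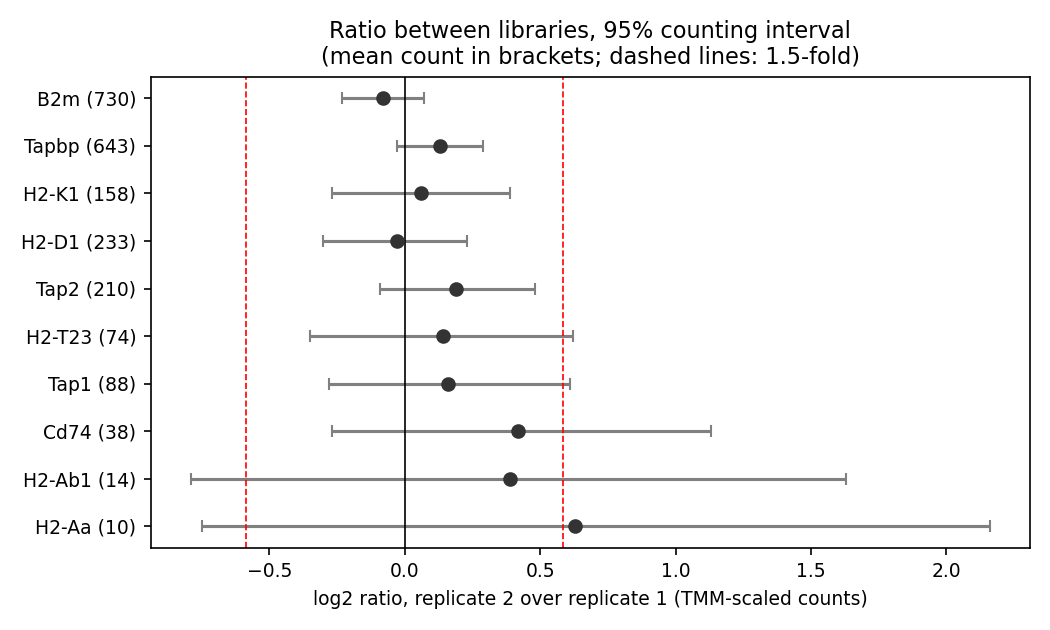
Log2 ratio of replicate 2 over replicate 1 for each gene on TMM-scaled counts, with its 95% counting interval, mean counts in brackets and dashed lines at 1.5-fold. Every interval includes 0, and the intervals widen from B2m, the member with the most counts, to H2-Aa, the one with the fewest.

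For B2m and H2-T23 the quantifications differed by more than the libraries did. Counts of the second quantification over those of the first had a median of 1.07 in replicate 1 and 1.08 in replicate 2. This was over 11846 protein-coding genes averaging at least 100 counts, and the central 90% lay from 0.907 to 1.20 and from 0.926 to 1.21. B2m fell below that range in both libraries, at 0.739 and 0.770, with 569 and 531 counts in the second quantification. H2-T23 was above it in both, at 1.44 and 1.46, with 103.8 and 109.47 counts. H2-Ab1 was also above it, at 1.25 and 1.60, from 15 and 24 counts. Other members lay inside the range in both libraries except Cd74, at 0.970 and 0.881, and H2-Aa, at 1.25 and 1.33. H2-T23, Cd74, H2-Ab1 and H2-Aa average fewer than 100 counts, so the range is one of better counted genes. With TPM rescaled over protein-coding genes in both tables, Tapbp was at 0.577 and 0.615 times its first value in the second, below the central 90% of genes, which began at 0.741 and 0.745.

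Several class I paralogs of the heavy chain genes had more counts in the second quantification. These partners share read-long windows with a member and were chosen after their values were seen. H2-Q10, which shares all 38 of the windows that H2-K1 shares, had 1.83 and 2.54 counts in the first quantification and 22.71 and 23.62 in the second. H2-Q7 had 14.21 and 4.91 counts in the first and 36.55 and 54.6 in the second, and Gm11127 had 22.96 and 16.62 counts in the first and 55.29 and 45.68 in the second. Their values are uncertain, as are those of H2-T23. H2-D1 shares reads too, but its counts in the second quantification were 1.03 and 1.09 times those in the first.

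The leading annotated form of Tap2 was a transcript that keeps an intron. Tap2-202 took 89.1% of the counts of Tap2 in replicate 1 (exact binomial 95% interval 84.0 to 93.0) and 88.7% in replicate 2 (83.6 to 92.5). In the second quantification it took 61.7% (55.2 to 68.2) and 65.3% (59.0 to 71.1), so it led there too, at a smaller share. The coding form Tap2-201 took 10.9% and 11.2% of the counts in the first quantification and 38.3% and 33.7% in the second. The background was 10800 protein-coding genes averaging at least 100 counts and with several annotated transcripts. Of these, 2.83% to 3.77% were led by a retained-intron form by TPM in a given library and quantification. In all 4 cases 115, or 1.06%, were so, and Tap2-202 led Tap2 by TPM in all 4. Tap2-201 and Tap2-202 have 2399 bases in common. Tap2-202 has 162 bases of its own, the intron, while Tap2-201 has 1043, nearly all in a first exon of 1097 bases that is 57 bases long in Tap2-202. The shares therefore rest on the reads in those parts, and the cause of the split was not tested.

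The retained intron of Tap2 follows 1140 coding bases and is printed in capitals with 15 bases of each flanking exon. Its length, 162 bases, is a multiple of 3, and read on in frame it holds 1 stop codon, the third codon of the intron.
Tap2 intron kept in Tap2-202 (chr17:34212053-34212244, plus strand): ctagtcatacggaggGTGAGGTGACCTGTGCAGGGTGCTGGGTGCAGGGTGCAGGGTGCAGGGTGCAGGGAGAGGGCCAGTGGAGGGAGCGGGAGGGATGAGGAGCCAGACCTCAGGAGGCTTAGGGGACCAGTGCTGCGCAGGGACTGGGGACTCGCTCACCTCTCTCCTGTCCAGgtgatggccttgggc
The sequence is that of the GENCODE M21 transcript on mm10.

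Forms with a retained intron took part of the counts of other members as well. For H2-T23 they took 26.4% (16.7 to 38.1) in replicate 1 and 28.6% (18.2 to 39.6) in replicate 2, close to the 23.9% and 30.5% of the second quantification. In H2-K1 they took 13.8% and 13.6% of the counts, against 7.40% and 7.61% in the second quantification. H2-D1 had 0 of 242.42 counts in such a form in replicate 1, which allows a share of up to 1.51% by the exact binomial interval, and 3.32% in replicate 2. The libraries stood apart in Tap1, where retained-intron forms took 34.3% (24.2 to 45.2) of 85 counts in replicate 1 and 8.74% (3.92 to 16.8) of 90 counts in replicate 2. In the second quantification the Tap1 shares were 52.5% (41.8 to 63.9) and 23.2% (15.7 to 33.4). The intervals of the 2 libraries did not overlap in either quantification, while the Tap1 counts summed over all forms were nearly equal. These intervals treat estimated counts as observed reads and leave out error in assigning reads to forms. For Tap2-202 in replicate 1, they were 84.0 to 93.0 in the first quantification and 55.2 to 68.2 in the second. Whether the Tap1 shares differ between the libraries was not tested. Tap1-206, a coding form, led in both libraries and both quantifications. For H2-Ab1 such forms took 38.5% (15.2 to 72.3) of 12 counts in replicate 1 and 3.67% (0.169 to 31.9) of 15 counts in replicate 2, a wider gap with intervals that overlapped. The H2-Ab1 shares were 1.20% and 4.58% in the second quantification, so that gap was not seen there. From its few counts, the retained-intron form H2-Ab1-203 took 61.84% of the TPM of H2-Ab1 in replicate 1 and 8.33% in replicate 2.

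**Figure D4:**
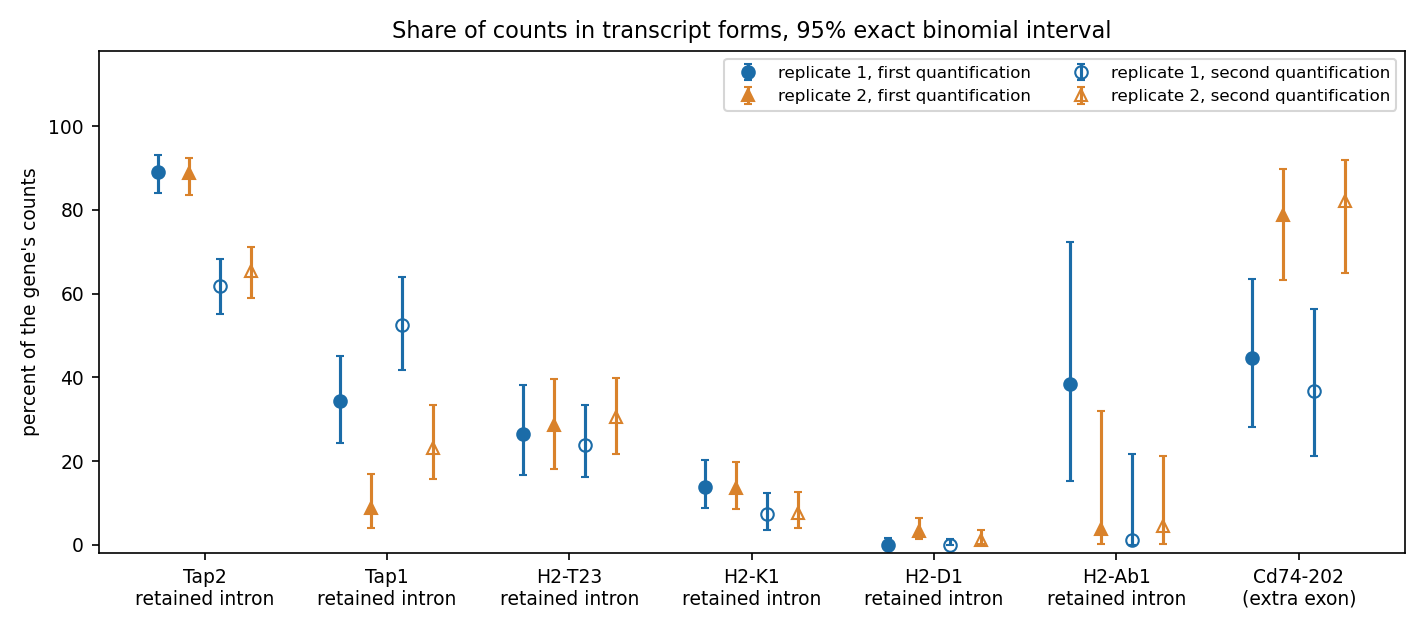
Percent of a gene's counts in retained-intron forms (or, for Cd74, in Cd74-202) by library (circles, replicate 1; triangles, replicate 2) and quantification (filled, first; open, second), with exact binomial 95% intervals. Tap2 is above 60% throughout, the Tap1 and Cd74-202 points lie apart between the libraries in both quantifications, and those of H2-Ab1, from 12 and 15 counts, lie apart in the first, with intervals that overlap.

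Short transcripts weighed more in TPM than in counts. H2-K1-215, a retained-intron form of 457 bases of which 437 lie in the coding form H2-K1-201, took 37.0% and 33.7% of the TPM of H2-K1 from 20.31 and 18.01 counts, and had 1.93 and 0 counts in the second quantification. Tapbp-208, a coding form of 367 bases, took 34.6% and 30.8% of the TPM of Tapbp from 34.02 and 30.19 counts and had 0 in the second. The longer Tapbp forms also traded places: Tapbp-206, which lies wholly within Tapbp-201, took 58.6% and 72.1% of the counts in the first quantification, and Tapbp-201 took 78.2% and 82.8% in the second. B2m has 1 annotated transcript. For H2-D1 and H2-T23 the coding forms H2-D1-202 and H2-T23-201 led throughout, at 95.3% and 82.6% of TPM for the H2-D1 form and 81.6% and 78.0% for the H2-T23 form.

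Cd74 had 2 coding forms whose balance differed between the libraries. Cd74-202 has an exon of 192 bases, or 64 codons, that Cd74-201 lacks (mm10, chromosome 18, 60811294 to 60811485). This is the longer invariant chain form known as p41, whose additional domain binds cathepsin L. Cd74-202 took 44.6% of 33 counts in replicate 1 (28.1 to 63.6) and 78.7% of 42 counts in replicate 2 (63.2 to 89.7). In the second quantification its shares were 36.7% (21.1 to 56.3) and 82.1% (64.8 to 92.0). The intervals of the libraries overlapped barely in the first quantification and did not overlap in the second. The exon that tells the forms apart is seen by a small part of these few reads, and the intervals leave out error in assigning them.

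Other genes of the pathway were taken from 7 lists with 72 names, of which 70 matched. Of these, 32 reached 1 TPM in both libraries, beside 57.6% of all protein-coding genes, and of the 30 averaging at least 100 counts, 0 were past 1.5-fold between the libraries. Peptide supply and loading was well represented, with 8 of 10 genes detected and a median of 18.7 TPM in replicate 1 and 23.6 TPM in replicate 2. Calr, encoding the chaperone calreticulin, had 222.9 and 194.1 TPM, Canx, encoding calnexin, 171.5 and 170.6 TPM, and Pdia3, encoding the disulfide isomerase of the loading complex, 87.7 and 79.4 TPM. These 3 serve glycoprotein folding in general. Psmb8 and Psmb9, chosen after their values were seen, encode the immunoproteasome subunits whose genes lie beside Tap1. Psmb8 had 26 and 25 counts and Psmb9 had 16 and 17, and both were below Tap1 by TPM in both libraries. Others of the list, likewise chosen, were higher. Psmb10, which encodes another immunoproteasome subunit, had 27.6 and 27.06 TPM. Psme1 had 20.13 and 23.05 TPM, and Psme2 had 17.28 and 24.08 TPM. Psmb9 overlaps Tap1 by 212 bases on the opposite strand and was at 0.353 and 0.532 times the TPM of Tap1.

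Of 20 other class I and class I-like genes, 2 were detected, and the list medians were 0.295 TPM in replicate 1 and 0.105 TPM in replicate 2. Fcgrt, encoding the neonatal Fc receptor, which pairs with B2m, led at 6.70 and 7.53 TPM. H2-T22, a non-classical class I gene, followed at 3.61 and 3.60 TPM. It has a 131-base run in common with H2-T23 in the reference build, where reads inside that run fit both genes. Its counts in the second quantification were 1.01 and 1.07 times those in the first. Hfe, encoding an iron-regulating class I-like protein, had 41 counts in replicate 1 and 92 in replicate 2, with a mean below the minimum of 100 for the comparison. Its log2 ratio was 1.23, with a counting interval of 0.70 to 1.81. Markers of choroid plexus were higher in replicate 2 as well, and their part in this was not tested. Cd1d2, H2-M2 and H2-M9 had 0 counts in both libraries, as they did in the second quantification except for 2.06 counts of H2-M2 in replicate 2. Detection in this list depended on the quantification. In the second, whose TPM scale differs, H2-Q4, H2-T24, H2-M3 and Hfe also reached 1 TPM in both libraries. H2-Q4, chosen after its value was seen, had 22 and 35.25 counts in the first and 90.97 and 102.86 in the second.

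Class II processing genes stood well above the class II chains. Ctsl, encoding cathepsin L, had 43.4 and 47.6 TPM, Lgmn, encoding legumain, 33.9 and 35.8 TPM, and Ctss, encoding the cathepsin that degrades the invariant chain, 21.8 and 23.4 TPM. Cathepsins and legumain act in lysosomes of many cells. Of all 13 matched genes of this list 7 were detected. The dedicated chain genes were low: H2-Eb1, chosen after its value was seen, had 16 and 12 counts, and H2-Eb2 had 0. H2-DMa, likewise chosen, encodes a chain of the peptide exchange factor and stood at 12.7 and 12.2 TPM, above every class II member, whereas its partners H2-DMb1 and H2-DMb2 had at most 18.62 counts in a library.

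The regulators list had 10 of 12 genes at 1 TPM or more, with medians of 9.32 TPM in replicate 1 and 9.80 TPM in replicate 2. Its leading genes were Nfyb at 25.78 and 24.03 TPM, Irf2 at 24.7 and 21.1 TPM and Rfxap at 19.09 TPM on average. NF-Y binds CCAAT boxes, the RFX complex binds the X box of MHC promoters, and IRF2 binds interferon response elements. The exceptions were the transactivators themselves, which do not bind DNA alone and are recruited by those factors. Nlrc5, for class I genes, had 16 counts in replicate 1 and 5 in replicate 2, and Ciita, for class II genes, had 1 and 3. Both were chosen after their values were seen. The interferon receptor genes were detected, with Ifngr2 at 20.97 and 19.63 TPM, Ifnar1 at 20.7 and 17.5 TPM and Ifnar2 at 8.23 and 10.3 TPM, while Ifng, encoding interferon gamma, had 0 counts in both libraries.

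Promoter sequence was at hand for 7 members in the RefSeq table for GRCm38.p6, in which H2-Ab1, Tap2 and Cd74 were not matched. The 250 bases before the RefSeq start of H2-K1, H2-D1, B2m and H2-Aa are printed, 2 heavy chain genes, their light chain and a class II chain, since the factors above are known to bind such promoters. Capitals mark 2 motifs searched on both strands, the CCAAT box (letters CCAAT) and a core that interferon regulatory factors bind (letters AANNGAAA), which did not overlap. The RefSeq start of H2-D1 lies inside the gene as the deposited annotation gives it, so its window does too.
H2-K1 (chr17:34000348-34000597, minus strand): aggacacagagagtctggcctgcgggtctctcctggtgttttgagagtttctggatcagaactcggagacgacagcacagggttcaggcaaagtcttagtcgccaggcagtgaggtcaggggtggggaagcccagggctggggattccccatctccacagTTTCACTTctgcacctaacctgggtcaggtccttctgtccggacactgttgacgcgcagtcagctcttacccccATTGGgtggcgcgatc
H2-D1 (chr17:35262844-35263093, plus strand): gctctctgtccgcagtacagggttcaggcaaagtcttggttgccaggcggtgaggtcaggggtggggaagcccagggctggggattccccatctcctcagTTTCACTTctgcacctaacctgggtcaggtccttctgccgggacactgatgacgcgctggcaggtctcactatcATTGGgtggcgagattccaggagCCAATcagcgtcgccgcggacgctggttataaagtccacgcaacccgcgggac
B2m (chr2:122147437-122147686, plus strand): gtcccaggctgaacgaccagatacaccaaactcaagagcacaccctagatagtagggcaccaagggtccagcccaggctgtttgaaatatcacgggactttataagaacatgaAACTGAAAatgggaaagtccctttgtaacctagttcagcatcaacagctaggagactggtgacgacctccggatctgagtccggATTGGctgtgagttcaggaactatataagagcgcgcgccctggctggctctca
H2-Aa (chr17:34287824-34288073, minus strand): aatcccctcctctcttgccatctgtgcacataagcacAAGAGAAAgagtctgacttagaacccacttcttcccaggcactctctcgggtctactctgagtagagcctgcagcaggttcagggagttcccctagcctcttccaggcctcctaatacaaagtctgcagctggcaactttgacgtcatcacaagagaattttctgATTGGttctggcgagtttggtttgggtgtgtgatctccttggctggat
The CCAAT letters occurred in this window of all 7 members, and in 33.8% of 32851 promoters of the same length. The interferon regulatory factor core occurred in 5 of 7, namely B2m, H2-K1, H2-D1, H2-T23 and H2-Aa, and in 21.3% of all promoters. A GC box (letters GGGCGG, either strand) occurred in 2 of 7, Tap1 and Tapbp, and in 32.7% of all. A match of letters is a description and was not tied to binding.

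Receptor genes of the cells that meet these molecules were low. None of 6 class I receptor and co-receptor genes reached 1 TPM in either library or quantification, and Cd8a, Cd8b1 and Klrc1 had 0 counts in both libraries. Klrc1 was at 0 in the second quantification too and Cd8b1 had at most 1.07 counts, but Cd8a, encoding the CD8 alpha chain, had 15.41 and 23.01 there. The leading genes of that list were Cd247, encoding the zeta chain of T cell receptors, at 2 and 3 counts, Pirb, an inhibitory receptor for class I on neurons and myeloid cells, at 3.66 and 5.64 counts, and Klrd1, encoding CD94, the partner chain that binds Qa-1, at 1 and 0 counts. Of 4 costimulator genes, Cd83 was detected, at 3.26 and 2.65 TPM, while Cd86 was at 0.52 and 0.48 TPM and Cd40 at 0.31 and 0.34 TPM. These 3 all passed 1 TPM in the second quantification, with Cd86 at 27.81 and 34.88 counts and Cd40 at 2.09 and 2.82 TPM. The TPM scales of the quantifications differ. Rescaled over protein-coding genes, Cd86 was at 1.18 and 1.13 in the first quantification and at 1.62 and 1.93 in the second. The counts of Cd40 were 42.1 and 60.39 there, against 6 and 10 in the first, so its level depended on the quantification.

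**Figure D5:**
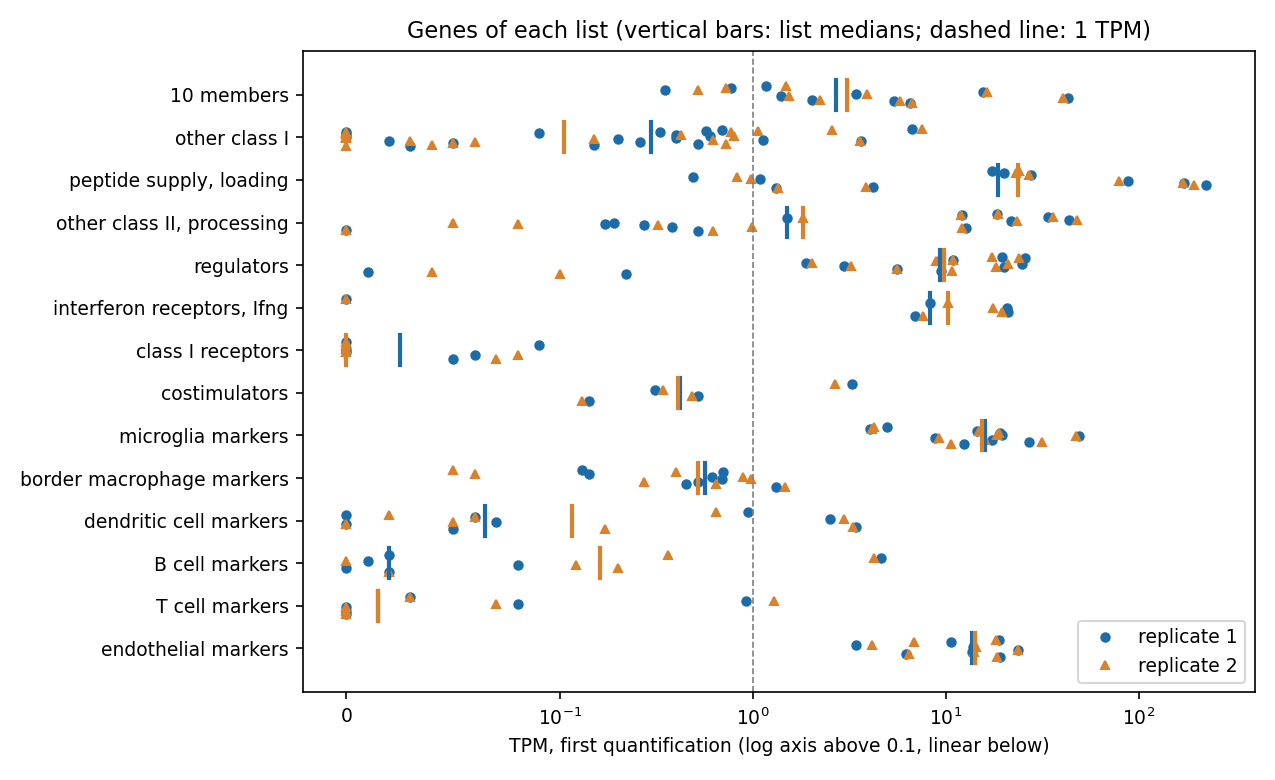
TPM of every gene in each list in replicate 1 (circles) and replicate 2 (triangles), on an axis that is logarithmic above 0.1 and linear below, with list medians as vertical bars and 1 TPM as a dashed line. Loading genes, regulators, interferon receptors and markers of microglia and endothelial cells lie mostly to the right of the line, and class I receptors and markers of dendritic, B and T cells mostly to the left.

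Markers give the cells that these members could come from. The labelled tissue carried its defining genes, as all 8 hippocampal neuron markers were detected, led by Camk2a, Snap25 and Slc17a7. Microglia markers were all detected (10 of 10), with a summed level of 176.4 TPM in replicate 1 and 174.8 TPM in replicate 2, with Csf1r and C1qa among its highest genes. Endothelial markers were all detected too (8 of 8), with sums of 109.3 and 106.0 TPM, led by Ly6c1, Cldn5 and Itm2a. Among them Ly6a, chosen after its value was seen, was past 1.5-fold lower in replicate 2, at 172.75 counts in replicate 1 and 107.4 in replicate 2, a log2 ratio of -0.61 with a counting interval of -0.98 to -0.26. Of the border-associated macrophage markers 1 of 8 was detected, Mrc1, followed by Pf4 and F13a1, with sums of 4.55 and 4.76 TPM. The dendritic cell list had 2 of 8 detected, Flt3 and Zbtb46, ahead of Batf3, with sums of 7.02 and 7.21 TPM, and Xcr1 had 0 counts, or 5.63 and 12.85 in the second quantification. The B cell list had 1 of 6 detected, Ighm, followed by Pax5, and the T cell list had 0 of 6, with Trac at 0.92 and 1.28 TPM ahead of Cd4 and Cd28, and Cd3d, Cd3e and Cd3g at 0 counts. Cd3e was at 0 in the second quantification too, whereas Cd3d had 27.94 and 10.32 counts there and Cd3g had 7 and 9. Which of these cells held the class II counts was not tested.

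The libraries were not alike in tissue edge. Choroid plexus markers summed to 26.51 TPM in replicate 1 and 1289 TPM in replicate 2, and all 7 compared were past 1.5-fold higher in replicate 2. The genes with the highest mean TPM were Ttr, Kl and Sostdc1, with log2 ratios of 5.90, 1.94 and 3.69. Meningeal fibroblast markers summed to 55.79 and 108.0 TPM, with Igf2, Dcn and Col1a1 at the highest mean TPM, and 3 of 6 compared were past 1.5-fold higher in replicate 2. The members summed to nearly the same TPM in both libraries, and the 5 compared stayed within 1.5-fold. Whether the transcript forms of Tap1 and Cd74 differed with the tissue edge was not tested.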

How the data were processed

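Total RNA sequencing of 2 libraries was analysed from the deposited tables, whose build is mm10 and annotation GENCODE M21, per the file headers. Of 3 tables per library, the gene table and 1 transcript table give expected counts, TPM and, per transcript, the percent of its gene's TPM, as the authors deposited them. Another transcript table, here the second quantification, has estimated counts and TPM that the authors made from the reads, per the file headers. Software, versions and use of strand: not given in the sources used here. Summed expected counts were 32443497 and 30125183. Spike-ins and numbered entries without a gene (4 and 4.88 counts, 1.23e-05% and 1.62e-05%) stayed out of library sizes.

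Expected counts were rounded and scaled with edgeR 4.0.16 (TMM, prior count 0.5) in R 4.3.3. Detected means 1 TPM or more in both libraries, and genes averaging at least 100 counts were compared at 1.5-fold and 2-fold, with no p-value. Ratios have exact binomial 95% intervals conditional on the summed count, and counts have exact Poisson intervals. PCR reads are not independent molecules, so these cover counting error only. Shares of transcript forms have exact binomial intervals on estimated counts, which leave out error in assigning reads to forms. The ratio step was tested on simulated data. Second-quantification counts were summed per gene. A count more than 0.005 from a whole number was read as shared between genes, and transcripts of M21 were searched for common windows. Python 3.11.15, pandas 2.3.3, numpy 2.4.6 and scipy 1.17.1 were used, and DESeq2 1.42.0 gave alternative size factors.

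The members and lists were chosen with earlier results of these data known. Named are the 10 members, the 3 highest genes by mean TPM of each other list, any list gene of the pathway past 1.5-fold with 100 counts, and genes sharing 5% or more of a member's windows. A marker gene that the rule names is not reported here. All other genes named were chosen after their values were seen. Alternatives were other scalings, count and TPM minimums, folds, prior counts and window lengths, the second quantification and each library alone. TPM of the second quantification rescaled over protein-coding genes was added as an alternative after seeing the data.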

Additional observations from a re-analysis of the deposited data

How the results depend on the processing

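The number of members past 1.5-fold stayed at 0 under DESeq2 size factors, total counts, spike-in scaling, a prior count of 2, a 2-fold limit and the second quantification. With a minimum mean count of 10, or with none, it was 1, H2-Aa at 8 and 12 counts. The number of other pathway genes past 1.5-fold likewise stayed at 0, except that it was 6 with a minimum of 10 and 19 with none, where fewer counts enter each ratio. Members detected ranged from 6 at 2 TPM to 9 at 0.5 TPM, and were 8 from either library alone. Other pathway genes detected numbered 29 at 2 TPM and 34 from either library alone. They numbered 41 with TPM rescaled over protein-coding genes and 43 in the second quantification. Members with a window shared with another gene numbered 7 with 50-base windows, against 4 whose counts were not whole. Members led by a retained-intron form by mean TPM numbered 2, Tap2 and H2-K1, and 1 in the second quantification, Tap2, where the cause was not tested. From either library alone it was 2, Tap2 and H2-K1 in replicate 2 but Tap2 and H2-Ab1 in replicate 1, where the coding form H2-K1-205 led H2-K1. The log2 ratios of B2m and Tapbp left their counting intervals under spike-in scaling, at 0.18 and 0.39, and no other ratio did under any setting. All 10 levels in TPM moved by more than the spread between libraries under rescaling and in the second quantification. Rescaling is a change of unit that raises every TPM, since protein-coding genes summed to 439300 and 424100 TPM before it. The second quantification also has another TPM scale. In replicate 1, B2m rose from 43.0 to 64.33 TPM there while its counts fell from 770 to 569. These moves are therefore no measure of how stable the levels are. No paired analysis was possible because the samples form 1 group, with no second group to pair them with. Depth limits the class II genes most.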
